A study of Mus musculus with 4 samples.

Results

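A set of 10 genes that maintain spermatogonial stem cells or direct their differentiation was followed through DNA methylation maps of mouse male germ cells. The genes were taken by name as 5 stem cell genes (Gfra1, Id4, Nanos2, Zbtb16 and Etv5) and 5 differentiation genes (Kit, Sohlh1, Sohlh2, Dmrt1 and Nanos3). Each gene was read over its RefSeq span in mm10 with 5 kb added on either side, divided into 1-kb windows holding at least 3 CpGs with a value in all 4 samples. This gave 761 of the 1566488 such windows of the genome, 510 around stem cell genes and 251 around differentiation genes.

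Spermatogonial stem cells renew themselves under signals from the niche, among which the growth factor GDNF acts through the receptor complex that Gfra1 belongs to. Retinoic acid then drives the switch to differentiating spermatogonia, which carry the receptor Kit and enter meiosis after further divisions. Methylation of CpGs is copied at each DNA replication by the methyltransferase Dnmt1, which Np95 (also named Uhrf1) guides to newly made DNA.

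The knockout group was Np95fl/fl:Stra8-Cre (n = 2) and the control group was Np95fl/fl (n = 2), both as male germ cells of mice aged 21 days. Both groups carried the floxed Np95 alleles, and the label of the control group lists no Cre. Stra8-Cre is a transgene in which the Stra8 promoter drives the recombinase in premeiotic male germ cells. The libraries were made by PBAT, a whole-genome bisulfite method in which adaptors are attached after conversion. No label says that the samples were separate mice, and the p-values reflect only the variation among these 4 samples, which could be technical. Each sample is a mixture of germ cells in which spermatogonia are only a part, so a lower level in every cell and a larger share of cells with a low level cannot be told apart. The deposited table gave a percentage at 28999710 to 29774194 cytosines per sample, and the number of reads behind each value is unknown.

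Markers of sample identity were read as promoter methylation, since methylation gives no RNA level. Promoters of maternally methylated imprinted genes, which male germ cells leave unmethylated, averaged 11.8% and 8.88% in knockouts against 12.6% and 10.7% in controls over 9 measured genes. All of these genes except Snrpn, which had 5 CpGs measured, were under 20% in both groups, and the 8 others, a list trimmed after its values were seen, averaged 8.74% and 6.19% in knockouts against 6.0% and 3.91% in controls.

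Every one of the 10 gene regions had less methylation in both knockouts than in both controls. The mean over a region's windows fell by 25.9 points at Nanos2 to 40.8 points at Gfra1, and limma called all 10 lower (Benjamini-Hochberg adjusted p from 2.06e-24 to 1.08e-14). A region was called where the adjusted p was under 0.05 and the levels differed by at least 10 points, and 99.2% of 19970 protein-coding gene regions were called lower by the same rule. The loss at these genes was thus shared with nearly all genes. For gene regions limma's variance was pooled over regions of like level, so these p-values do not rest on each region's own spread.

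**Figure D1:**
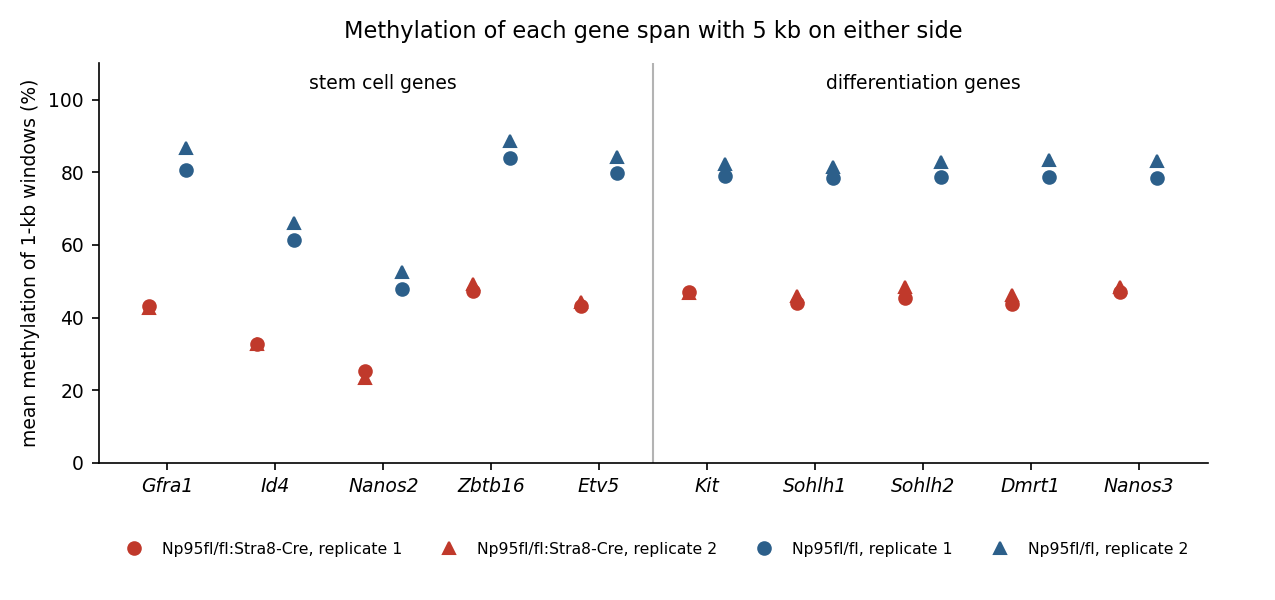
Mean methylation (%, vertical axis) of the 1-kb windows of each gene region (horizontal axis), with 1 symbol per sample and knockouts left of controls. In every gene both knockout symbols lie below both control symbols, and Nanos2 and Id4 have the lowest levels in both groups.

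Among the stem cell genes, the region of Gfra1 (chromosome 19, 58235581 to 58455946), the GDNF co-receptor, had 43.1% and 42.7% in knockouts against 80.7% and 86.7% in controls. Id4 (chromosome 13, 48261116 to 48266028), which encodes an inhibitor of basic helix-loop-helix factors that marks the stem cells, had 32.7% and 32.8% in knockouts against 61.4% and 66.0% in controls. Nanos2 (chromosome 7, 18987524 to 18988962), an RNA-binding protein that holds germ cells in the undifferentiated state, had 25.2% and 23.5% in knockouts against 47.9% and 52.6% in controls. Unmethylated windows made up more of these short regions: 4 of 14 windows at Id4 and 3 of 10 at Nanos2 were under 20% in controls, against 5 of 225 at Gfra1. Zbtb16 (chromosome 9, 48651797 to 48836225), the transcriptional repressor also called PLZF, had 47.2% and 49.1% in knockouts against 83.9% and 88.6% in controls. Etv5 (chromosome 16, 22381313 to 22439570), an ETS factor needed for stem cell renewal, had 43.3% and 44.3% in knockouts against 79.7% and 84.2% in controls. Groups were far apart in both genes, and the knockout samples lay within 2 points of each other.

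Among the differentiation genes, Kit (chromosome 5, 75574987 to 75656722), the receptor of stem cell factor, had 47.0% and 46.6% in knockouts against 79.0% and 82.3% in controls. Sohlh1 (chromosome 2, 25842995 to 25847248), a helix-loop-helix factor that promotes differentiation, had 43.9% and 46% in knockouts against 78.4% and 81.4% in controls. Its partner Sohlh2 (chromosome 3, 55182044 to 55209957) had 45.4% and 48.3% in knockouts against 78.7% and 82.8% in controls. The levels of both Sohlh regions were less than 3 points apart in each of the 4 samples. Dmrt1 (chromosome 19, 25505618 to 25604328), which controls the choice between mitosis and meiosis in spermatogonia, had 43.7% and 46.2% in knockouts against 78.8% and 83.3% in controls. Nanos3 (chromosome 8, 84173733 to 84176552), an RNA-binding protein that protects early germ cells and persists in spermatogonia, had 47.0% and 48.4% in knockouts against 78.5% and 83.1% in controls. All 5 differentiation genes had between 43 and 49% in knockouts and between 78 and 84% in controls.

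The share of the control level that knockouts retained differed among the genes. Nanos2 retained 48.4% (50.1% and 46.7% in the 2 knockouts), Gfra1 51.3% (51.5% and 51.0%) and Id4 51.4% in both knockouts. Etv5 retained 53.4% and Zbtb16 55.8%. Dmrt1 retained 55.5%, Sohlh1 56.2%, Sohlh2 58.0%, Kit 58.1% (58.3% and 57.8%) and Nanos3 59.0% (58.2% and 59.8%). Over all protein-coding gene regions the median was 54.5%, with the middle 50% between 52.0% and 57.0%. Nanos2 stood at percentile 3.5 of this distribution and Nanos3 at percentile 91.6, while the other genes lay between percentiles 17.9 and 85.4. These 2 genes had the fewest windows of the set, 10 at Nanos2 and 12 at Nanos3 against 225 at Gfra1, so their shares rest on few windows. Zbtb16 and Dmrt1, and likewise Kit and Sohlh2, differed by less than the gap between the knockout samples of each of these genes, while Id4 and Etv5 differed by more. Each share was taken against the mean of the 2 controls, so these gaps leave out the spread of the controls. At Id4 the controls had 61.4% and 66.0%.

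**Figure D2:**
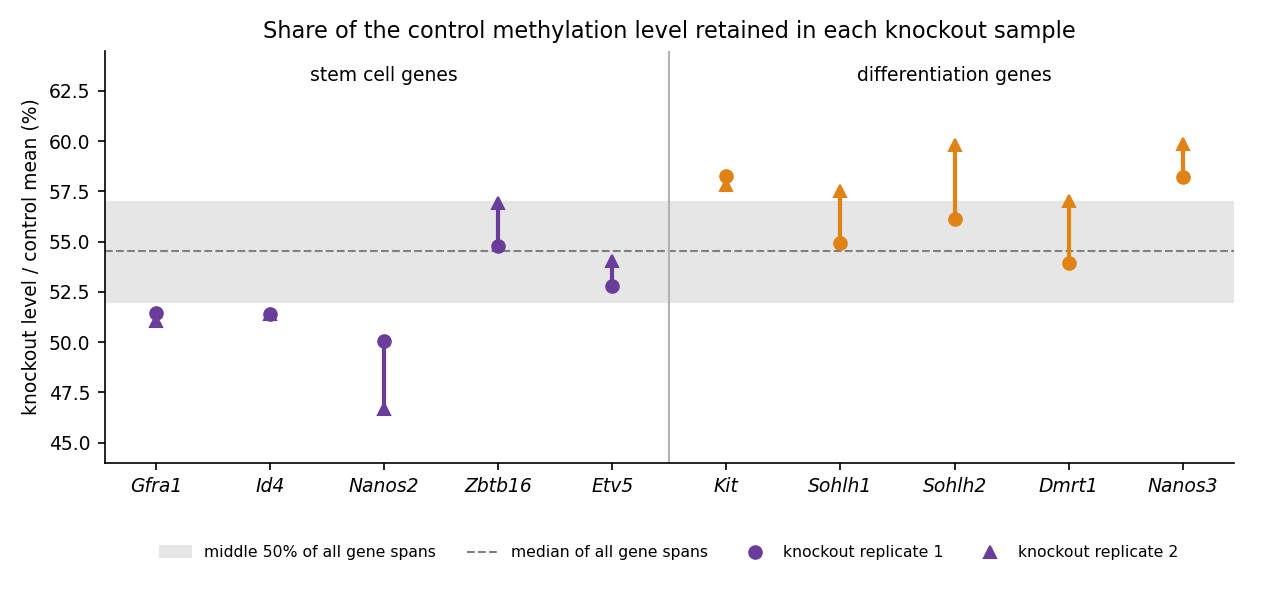
Retained share of the control mean (%, vertical axis, starting at 44) for each gene region, with circles for knockout replicate 1 and triangles for knockout replicate 2; the dashed line and grey band are the median (54.5%) and middle 50% of all protein-coding gene regions. Of the stem cell genes Zbtb16 alone exceeds the median in both knockouts, and of the differentiation genes Dmrt1 alone has a knockout below it.

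Stem cell genes as a class averaged 38.4% ± 0.120 in knockouts and 73.2% ± 3.5 in controls (SD, n = 2 each), a retained share of 52.4%. Differentiation genes averaged 46.2% ± 1.20 in knockouts and 80.6% ± 2.76 in controls (SD, n = 2 each), a retained share of 57.4%. In points the changes were close, -34.8 for stem cell genes and -34.4 for differentiation genes. Their difference of -0.403 points gave p = 0.667 in an exact two-sided permutation test over samples, in which 2 against 2 samples cannot go below 0.333. As a log2 ratio of knockout to control level, stem minus differentiation genes gave -0.14 (exact permutation p = 0.333, the smallest possible). Without knockout replicate 2 the difference was 0.359 points and without control replicate 2 it was 0.126 points, so its sign rested on single libraries. The classes overlapped, since Zbtb16 retained more than Dmrt1.

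The regions differ in their share of unmethylated windows, so the classes were also compared where controls were highly methylated. Over windows with at least 80% in controls, stem cell genes had 45.9% ± 0.346 in knockouts and 88.8% ± 4.62 in controls (SD, n = 2 each), a change of -42.9 points. Differentiation genes had 51.3% ± 1.81 in knockouts and 89.6% ± 2.65 in controls (SD, n = 2 each), a change of -38.2 points. The difference between the changes was then -4.68 points (exact permutation p = 0.333, the smallest possible). These windows were chosen on the control values that are compared. With windows pooled within a class, stem cell genes retained less than differentiation genes at each CpG number: 53.6% in stem cell and 59.1% in differentiation genes in windows of 3 to 5 CpGs, 52.9% in stem cell and 56.0% in differentiation genes in windows of 6 to 9, and 53.4% in stem cell and 56.7% in differentiation genes in windows of 10 or more. All windows of the genome with such control levels retained 52.3%, 52.8% and 53.2% at the same CpG numbers. Of the 441 pooled stem cell gene windows, Gfra1 supplied 195 and Zbtb16 177, so these 2 genes weighed most at that side. In their windows of at least 80%, Gfra1 retained 51.0% and Zbtb16 56.0%, against 55.6% at Dmrt1, so the classes overlapped here too.

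Of the 761 windows, limma called 723 lower in knockouts (95.0%) and 0 higher. Over all windows of the genome 93.4% were called lower and 0.137% higher, so the share called lower was close to the background. When each window was tested on its own spread alone, 464 of the 761 windows were called lower, and 859390 of all windows. The windows called lower were 487 of 510 around stem cell genes and 236 of 251 around differentiation genes. All 636 windows with at least 80% in controls were among them, against 99.9% of all such windows of the genome. So were 87 of the 91 windows between 20% and 80%, against 87.1% of all such windows. The 4 exceptions were 3 windows of Gfra1 and 1 of Kit, all at 23.0 to 38.5% in controls and lower by 6.15 to 9.37 points in knockouts. None of the 34 windows under 20% in controls was called, against 0.727% called lower and 3.04% called higher of all such windows. At an adjusted p under 0.05 without a minimum difference, 6 windows were higher in knockouts, and these are described with the gene starts. The mean over the 10 genes' windows changed by 0.312 points less than that over all windows (exact permutation p = 0.667). The sign of this difference turned with the windows used, to -0.403 points with at least 5 CpGs per window, -2.75 with at least 10 and -0.678 without flanks.

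**Figure D3:**
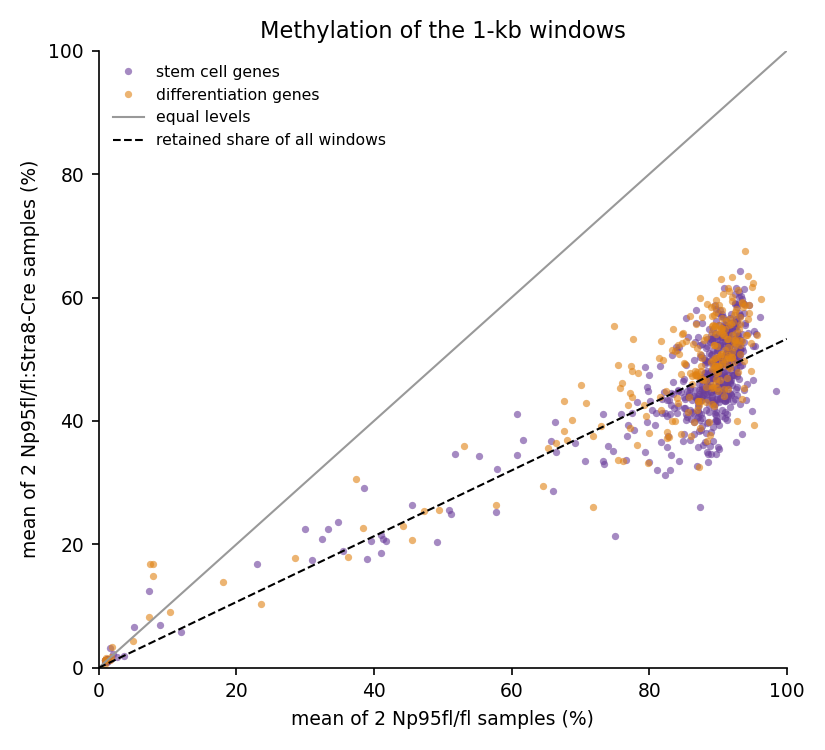
Mean methylation of each of the 761 windows in the 2 knockouts (%, vertical axis) against the 2 controls (%, horizontal axis); the solid line marks equal levels and the dashed line the 53.3% retained over all windows. Windows over 20% in controls lie below the solid line in both classes, and the windows farthest above it, all under 20% in controls, are from Sohlh1, Sohlh2 and Gfra1.

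The largest loss in any window was inside Gfra1, at 58421001 to 58422000 on chromosome 19. This window of 7 CpGs had 27.5% and 24.8% in knockouts against 82.7% and 92.0% in controls, a change of -61.2 points (limma adjusted p = 1.78e-05). The largest loss in each of the 8 next genes lay between -55.9 points at Kit (75605001 to 75606000) and -49.5 points at Nanos2 (18984001 to 18985000). At Nanos3 it was -41.0 points, in a window at 84178001 to 84179000 that contains the microRNA genes Mir181d and Mir181c. This window had 53.4% and 47.4% in knockouts against 89.6% and 93.2% in controls. The largest loss was picked from 225 windows at Gfra1 and from 12 at Nanos3, so the genes are not compared on equal numbers. The largest losses at Dmrt1, Etv5, Id4, Kit and Sohlh2 had the same limma adjusted p as that at Gfra1. Windows of intermediate control level, between 20% and 80%, made up 28 of 87 at Kit (32.2%) and 4 of 10 at Nanos2, against 16.7% of all windows. In the other genes the share lay between 3.23% at Sohlh2 and 16.7% at Nanos3. The 28 Kit windows averaged 39.7% and 38.0% in knockouts against 65.6% and 69.6% in controls. All but 1 were called lower, against 87.1% of all windows of that control level.

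The gene starts split the set into 3 kinds, and the sequences of 5 of them are shown to compare how many CpGs each holds. They are from RefSeq (GRCm38.p6, the build also called mm10), in which 8 of the 10 genes were matched by symbol. They run from 250 bases before to 50 after the gene start, 5′ to 3′, and have each CpG in capitals.
Kit, chr5:75574737-75575036, plus strand: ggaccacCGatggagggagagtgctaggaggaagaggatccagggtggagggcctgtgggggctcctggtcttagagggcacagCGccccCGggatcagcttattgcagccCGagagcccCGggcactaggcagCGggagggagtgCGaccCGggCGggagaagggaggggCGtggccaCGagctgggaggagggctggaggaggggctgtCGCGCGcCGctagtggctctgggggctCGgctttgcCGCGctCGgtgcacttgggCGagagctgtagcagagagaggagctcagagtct
Sohlh1, chr2:25847199-25847498, minus strand: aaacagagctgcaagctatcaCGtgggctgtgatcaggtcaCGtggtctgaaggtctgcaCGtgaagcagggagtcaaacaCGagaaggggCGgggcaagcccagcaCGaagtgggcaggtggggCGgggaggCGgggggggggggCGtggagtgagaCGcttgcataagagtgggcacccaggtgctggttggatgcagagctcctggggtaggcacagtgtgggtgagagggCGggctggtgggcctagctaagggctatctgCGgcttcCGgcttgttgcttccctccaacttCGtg
Sohlh2, chr3:55181794-55182093, plus strand: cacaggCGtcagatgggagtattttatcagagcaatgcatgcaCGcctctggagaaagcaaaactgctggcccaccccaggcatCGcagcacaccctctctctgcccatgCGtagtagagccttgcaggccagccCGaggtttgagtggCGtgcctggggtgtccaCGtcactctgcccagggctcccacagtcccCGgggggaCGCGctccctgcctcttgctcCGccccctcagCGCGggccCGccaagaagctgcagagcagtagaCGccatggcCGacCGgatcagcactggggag
Nanos3, chr8:84176503-84176802, minus strand: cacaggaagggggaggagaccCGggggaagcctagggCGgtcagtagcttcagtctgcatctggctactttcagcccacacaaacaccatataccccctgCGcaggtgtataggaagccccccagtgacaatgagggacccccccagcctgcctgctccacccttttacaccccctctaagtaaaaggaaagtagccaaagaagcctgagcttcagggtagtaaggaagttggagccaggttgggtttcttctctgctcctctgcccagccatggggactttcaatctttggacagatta
Nanos2, chr7:18987274-18987573, plus strand: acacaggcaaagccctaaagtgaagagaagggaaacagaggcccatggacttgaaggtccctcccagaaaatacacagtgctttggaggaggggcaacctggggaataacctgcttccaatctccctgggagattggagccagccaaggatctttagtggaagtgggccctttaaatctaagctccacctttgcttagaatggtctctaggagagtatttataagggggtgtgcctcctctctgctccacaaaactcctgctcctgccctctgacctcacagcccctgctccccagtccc
Kit has 20 CpGs in these 300 bases, Sohlh2 17, Sohlh1 14, Nanos3 3 and Nanos2 0. Of 15961 promoters compared at this length, 38.7% hold at least as many CpGs as Kit, 46.1% as many as Sohlh2, 52.8% as many as Sohlh1 and 83.8% as many as Nanos3. Of the genes not shown, Id4 has 39, Etv5 37 and Gfra1 12.

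Promoters were measured from 1000 bp before to 500 bp after the start, and 9 of the 10 genes had a value. Zbtb16 was read at its CpG-rich end because no promoter sequence giving its strand was found. None was found for Dmrt1 either, and neither of its ends was CpG-rich by the rule used. The first kind of start was unmethylated in every sample. The promoters of Gfra1, Id4, Etv5 and Kit and the CpG-rich end of Zbtb16 lay between 0.845% and 1.94% in knockouts and between 0.954% and 1.62% in controls. None was called, and at each of them knockout and control samples overlapped. Kit, for instance, had 0.981% and 0.845% in knockouts against 1.62% and 0.954% in controls over 86 CpGs.

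These starts lay in runs of unmethylated windows (consecutive windows under 20% in controls). The run at Gfra1 covered 4 kb (58453001 to 58457000) with 1.48% in knockouts and 1.44% in controls, and overlapped the lncRNA gene Gm41876. At Id4 it covered 4 kb (48260001 to 48264000) with 3.03% in knockouts and 2.28% in controls, and reached into the lncRNA gene A330033J07Rik. The lowest control level among stem cell genes was in the 3-kb run of Etv5 (22438001 to 22441000), which had 1.14% in knockouts and 1.08% in controls. The run at Kit covered 2 kb (75574001 to 75576000), with 0.961% in knockouts and 1.23% in controls. At Zbtb16 a 4-kb run (48834001 to 48838000) had 3.97% and 3.63% in knockouts against 5.80% and 5.87% in controls. Among differentiation genes the lowest control level was at the lower-coordinate end of Dmrt1 (25505001 to 25508000), with 1.41% in knockouts and 1.21% in controls. The other end of Dmrt1 had a 5-kb run (25604001 to 25609000) at 5.35% in knockouts and 5.12% in controls.

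The second kind of start had a promoter interval that was methylated in controls and lost methylation in knockouts. The Nanos2 promoter, with 14 CpGs measured, had 39.2% and 32.2% in knockouts against 72.7% and 76.8% in controls, a change of -39.0 points (log2 coefficient -2.37, SE 0.36, limma adjusted p = 0.000213). Of these CpGs, 12 lay within 500 bp after the start, with means of 41.7% in knockouts and 85.3% in controls. The 2 within 500 bp before it had means of 12.2% in knockouts and 25.5% in controls, so the Nanos2 value mostly describes the gene after its start. The Nanos3 promoter, with 17 CpGs measured, had 47.2% and 45.8% in knockouts against 82.7% and 87.9% in controls, a change of -38.8 points (log2 coefficient -2.68, SE 0.41, limma adjusted p = 0.000225). Both genes of the Nanos family in the set were thus apart from the other starts, and in both the groups did not overlap. They were the 2 promoters of 9 called lower, against 22.2% of 17393 promoters. Each lost its call when tested on its own spread alone (limma adjusted p = 0.102 for Nanos2 and 0.101 for Nanos3), a test that called 1 of the 17393 promoters lower. All 3 CpGs of the printed Nanos3 sequence were lower in both knockouts than in both controls, a count with no share over all CpGs beside it. Their means were 24.9% and 37.7% in knockouts against 67.4% and 59.4% in controls. Downstream of Nanos2 a 3-kb unmethylated run (18990001 to 18993000) overlapped the neighbouring gene Mypop and had 1.49% in knockouts and 1.62% in controls.

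The third kind of start had a low level in controls and a higher one in knockouts, and held Sohlh1 and Sohlh2. The Sohlh1 promoter, with 36 CpGs, had 18.8% and 13.6% in knockouts against 8.0% and 8.17% in controls. The difference of 8.15 points (log2 coefficient 1.04, SE 0.24, limma adjusted p = 0.00413) was under the 10 points needed for a call. At Sohlh2, with 49 CpGs, the levels were 17.8% and 15.3% in knockouts against 8.08% and 6.17% in controls. That difference, 9.42 points (log2 coefficient 1.27, SE 0.23, limma adjusted p = 0.000746), was also under 10 points. In both genes both knockouts were above both controls. No promoter of the set was called higher, against 0.253% of all promoters, and without a minimum difference these 2 were the only ones of 9 higher at an adjusted p under 0.05, against 2.56% of all promoters. Tested on its own spread alone, neither reached that threshold (limma adjusted p = 0.173 for Sohlh1 and 0.123 for Sohlh2).

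The differences placed Sohlh1 at percentile 99.5 and Sohlh2 at percentile 99.6 of all promoters ranked by knockout minus control. Among promoters under 20% in controls, 3.36% were higher at an adjusted p under 0.05 without a minimum difference and 1.71% were higher by at least 5 points. The size of the differences varied with the libraries used. Leaving out knockout replicate 1 gave 5.54 points at Sohlh1 and 8.15 at Sohlh2. Leaving out knockout replicate 2 gave 10.8 points at Sohlh1 and 10.7 at Sohlh2, and leaving out control replicate 1 gave 10.4 points at Sohlh2. The values over 10 points were then called higher. Promoters of germline genes that somatic cells methylate, such as Dazl and Sycp3, averaged 17.8% and 14.6% in knockouts against 7.79% and 8.18% in controls, and both knockouts were above both controls at 5 of 6 measured. The 9 imprinted promoters measured averaged 11.8% and 8.88% in knockouts against 12.6% and 10.7% in controls. Without Snrpn, a trimming made after the values were seen, the 8 others had 8.74% and 6.19% in knockouts against 6.0% and 3.91% in controls. The direction thus depended on 1 promoter. Promoters of Sertoli cell genes averaged 9.77% and 10.6% in knockouts against 18.1% in both controls over 7 genes, and those of Leydig cell genes 18.4% and 17.2% in knockouts against 31.9% and 31.4% in controls over 4 genes. Both knockouts were below both controls at 4 of the 7 Sertoli and 3 of the 4 Leydig promoters. In each list 1 promoter that was methylated in controls held most of the difference, Amhr2 with 42.8% in knockouts and 85.8% in controls and Hsd3b1, with 5 CpGs measured, with 48.8% in knockouts and 94.3% in controls. The Sertoli promoters of Sox9, Wt1, Amh and Cldn11 were under 4% in every sample. The counts of germline, Sertoli and Leydig promoters without overlap have no share over all promoters beside them here. Nothing particular to a list is therefore read from them. Over all 17393 promoters, 5600 were lower and 445 higher at a limma adjusted p under 0.05 without a minimum difference. The part of other cells in the Sohlh1 and Sohlh2 values was not tested.

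**Figure D4:**
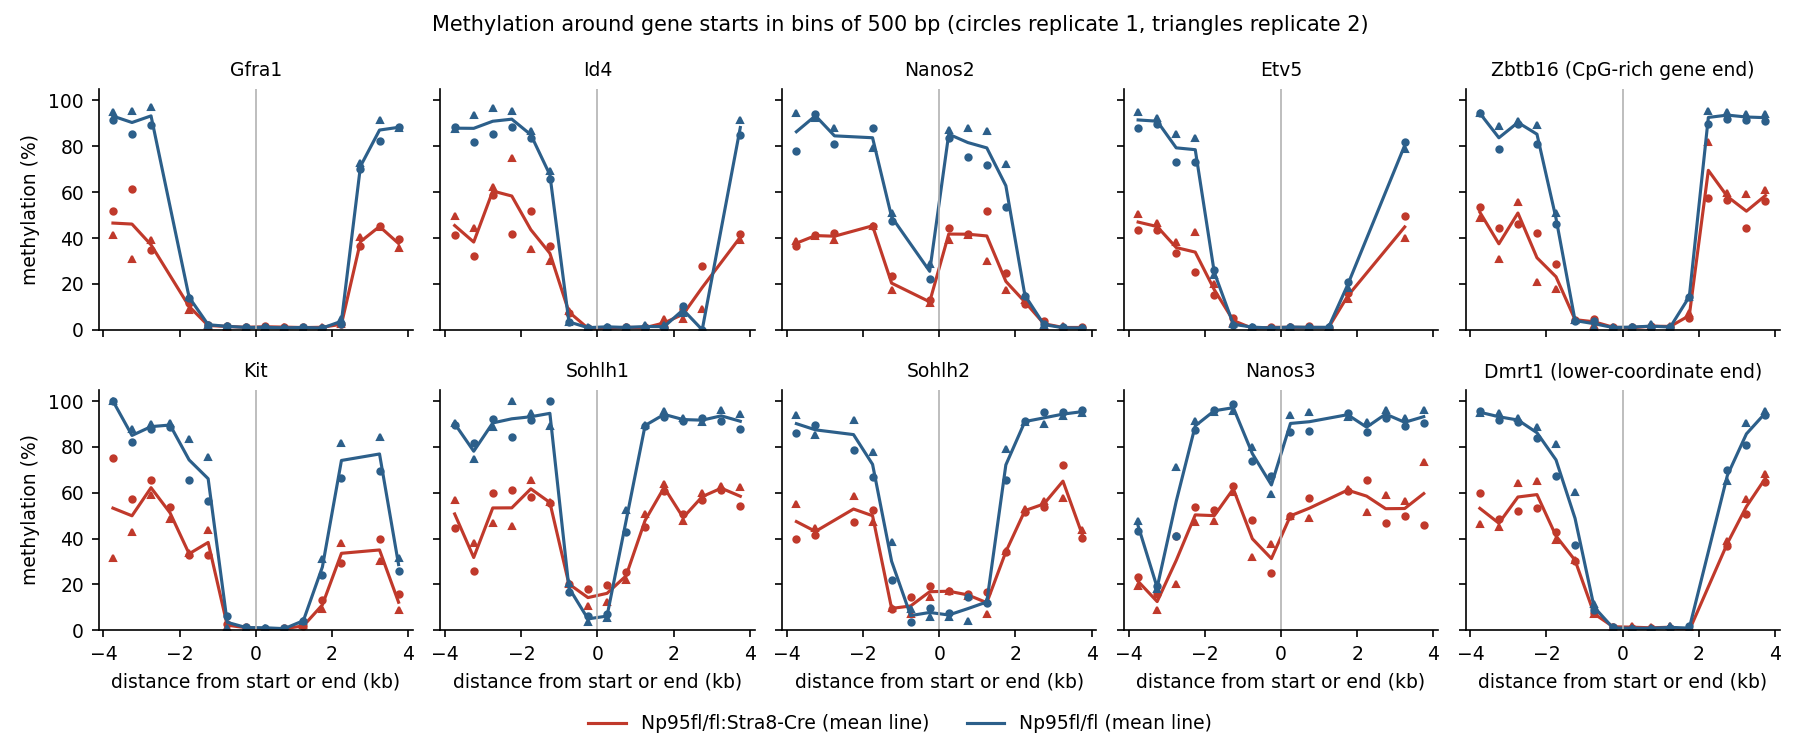
Methylation (%, vertical axis) in bins of 500 bp against distance from the gene start, or gene end for Zbtb16 and Dmrt1 (kb, horizontal axis), with lines for group means and symbols for samples. The trough is near 0 in both groups at 6 genes, Nanos2 and Nanos3 have the control line above the knockout line through the start, and at Sohlh1 and Sohlh2 the knockout line lies above the control line in the trough.

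The CpGs of the printed Sohlh2 sequence were higher in knockouts along nearly its whole length. At 15 of the 17 CpGs both knockouts were above both controls, and the mean was 21.7% and 17.3% in knockouts against 9.08% and 5.0% in controls. At the CpG 19 bp after the start the levels were 21.0% and 26.3% in knockouts against 7.05% and 5.83% in controls. The printed Sohlh1 sequence was less even, with both knockouts above both controls at 6 of its 14 CpGs. Its mean was 19.9% and 8.19% in knockouts against 7.46% and 2.41% in controls, so knockout replicate 2 was close to control replicate 1. At 5 Sohlh1 CpGs from 142 to 91 bp before the start, knockout replicate 2 was listed at 0, and each of these CpGs had 1 cytosine measured. The CpGs of a promoter share reads and are not independent. No share of CpGs without overlap was computed over the genome, so these counts describe the printed sequences only.

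**Figure D5:**
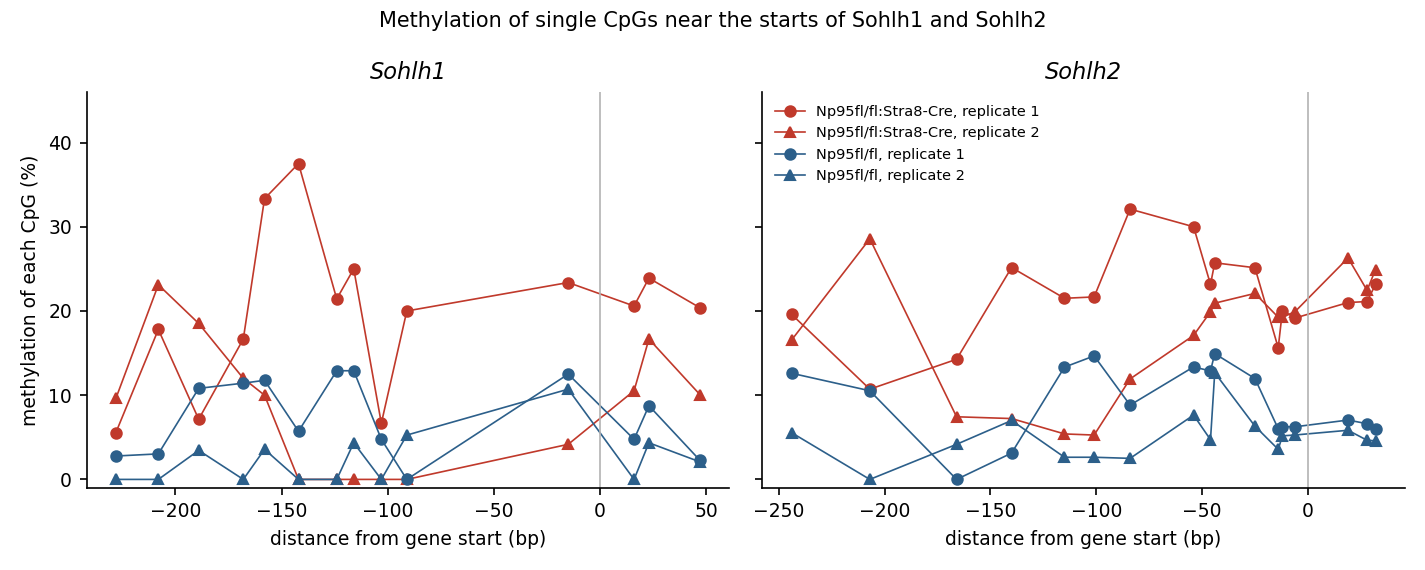
Methylation of each CpG (%, vertical axis) in the printed sequences of Sohlh1 (left, 14 CpGs) and Sohlh2 (right, 17 CpGs) against distance from the gene start (bp, horizontal axis), with 1 line per sample. In Sohlh2 the knockout lines run above both control lines at 15 of 17 CpGs, while in Sohlh1 knockout replicate 2 drops to 0 upstream of the start.

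The E-box CACGTG, a palindrome that helix-loop-helix factors of many families bind, was searched in the 300-base sequences on both strands. It occurs 3 times in Sohlh1, at the CpGs 228, 208 and 189 bp before the start, and in no other of the 8 genes with a sequence. At least 1 copy is in 8.19% of the 15961 promoters and 3 or more copies are in 0.113%. The CpG 208 bp before the start had 17.8% and 23.1% in knockouts against 3.03% and 0% in controls. The CpG at 228 bp had 5.56% and 9.62% in knockouts against 2.78% and 0% in controls, and at 189 bp the groups overlapped. The motif GCGGGA, a core of sites bound by E2F factors, was also searched on both strands and occurs in Kit only, with 2 copies, against 27.4% of promoters with at least 1.

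The 1-kb windows over the Sohlh1 and Sohlh2 starts share cytosines with the promoters, so their values are not a separate test. The window of the Sohlh1 start (25847001 to 25848000) had 19.5% and 14.0% in knockouts against 7.91% and 7.80% in controls, a difference of 8.93 points (limma adjusted p = 0.00378). At Sohlh2 the window 55182001 to 55183000 had 16.9% and 16.7% in knockouts against 9.64% and 5.27% in controls, a difference of 9.37 points (limma adjusted p = 0.00213). The window before it had 18.5% and 11.4% in knockouts against 9.07% and 6.86% in controls, and the window after it 16.0% and 11.8% in knockouts against 18.3% and 17.8% in controls, so the higher level in knockouts ended within the gene. The other windows higher at an adjusted p under 0.05 were 1 inside Gfra1 (58358001 to 58359000), with 12.9% and 11.8% in knockouts against 9.34% and 5.41% in controls, and those of Id4 and Dmrt1, with differences of 1.69 and 1.43 points. Without a minimum difference 0.640% of all windows and 14.4% of windows under 20% in controls were higher. Of the 34 windows under 20% in controls, both knockouts were above both controls in 10 and below them in 7, against 26.8% and 25.8% of all such windows.

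Stem cell gene promoters, over 5 genes, averaged 8.98% and 7.33% in knockouts against 15.6% and 16.3% in controls. Differentiation gene promoters, over 4 genes, averaged 21.2% and 18.9% in knockouts against 25.1% and 25.8% in controls. The changes of -7.79 and -5.40 points differed by -2.39 points (exact permutation p = 0.333, the smallest possible). In each class the 1 promoter called lower was that of a Nanos gene.

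A list of 25 other genes known from spermatogonia, among them Ret, the GDNF receptor kinase, and Neurog3, a factor of early differentiation, was read in the same way. All 25 gene regions were called lower, against 99.2% of all gene regions. The median retained share was 55.7% in the 10 genes and 51.1% (40.9% to 60.0%) in the further list, against 54.5% over all gene regions. Within the 10 genes the median was 51.4% in stem cell genes and 58.0% in differentiation genes. Median control levels also differed, at 80.8% in the 10 genes and 70.5% in the further list. Of 24 promoters measured, 1 was called lower and 0 higher, against 22.2% lower and 0.253% higher over all promoters. The median difference of the 24 was -0.164 points, against -0.397 points over all promoters. However, 23 of the 24 were under 20% in controls, as were only 13253 of the 17393 promoters. Among promoters under 20% in controls the median difference was -0.160 points both in the list and over all genes. Of those 13253 promoters 12 were called lower and 44 higher, so the list was near the background at its control level. The promoter called was that of Tspan8, a tetraspanin found on stem cells, with 26.3% and 35.1% in knockouts against 72.5% and 84.6% in controls (limma adjusted p = 0.000134). The next largest differences, at Shisa6 and Nodal, were -7.75 and -3.63 points and were not called. No promoter of this list was higher by 5 points or more in knockouts, against 1.32% of all promoters and 1.71% of those under 20% in controls.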

How the data were processed

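The deposited table gives, in percent, the methylated share of reads at each cytosine of a CpG, with both strands listed separately. Its title names a minimum of 10 reads. The genome build was mm10, per the submitters' processing notes. An aligner or caller was not given in the sources used here. As deposited, values come with no coverage, so the depth is unknown, no interval was computed and every cytosine had the same weight. Of 37230584 listed cytosines, 22421484 (60.2%) had a value in all 4 samples and were used.

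Levels were means over cytosines (windows, promoters) or over windows (gene regions of at least 3 windows). Regions were tested over the whole genome with limma 3.58.1 (R 4.3.3), trended and robust, on a log2 scale, log2((m + 0.01)/(1 − m + 0.01)) with m the methylated fraction, after tests on simulated data. Single values were compared by exact permutation. The text names the 10 genes, their promoters, their windows of largest change and lowest runs, and the 3 largest promoter losses of the further list. Promoters needed 5 CpGs, and a gene end stood in where it listed at least 2 times the CpGs of the other end. The members and lists were chosen with earlier results of these data known. Alternatives covered filters, flank, weighting, offset, minimum difference, variance and samples left out. Other software was data.table (version 1.17.8), SciPy 1.17.1, pandas 2.3.3, NumPy 2.4.6, Matplotlib 3.10.9 and Python 3.11.15.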

Additional observations from a re-analysis of the deposited data

How the results depend on the processing

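All 10 gene regions were called lower under each alternative run. With each region tested on its own spread, 464 of 761 windows, 0 promoters of the 10 genes and 0 of the further list were called lower, and neither Sohlh promoter had an adjusted p under 0.05. Of all 17393 promoters that test called 1 lower and 0 higher. With at least 10 CpGs per window, 425 of 459 windows were lower. Without a minimum difference, 6 windows and 2 promoters were higher and 4 promoters of the further list lower. With each sample on its own cytosines, 1 window was higher. Leaving out 1 sample gave 0 to 2 windows and 0 to 2 promoters higher, with 2 of each without knockout replicate 2 and 1 of each without control replicate 1. The change of stem cell minus differentiation genes, -0.403 points, was -1.17 to 0.359 with 1 sample left out (0.359 without knockout replicate 2, 0.126 without control replicate 2), 0.214 with at least 10 CpGs per window, 1.28 without flanks, -1.89 with 10-kb flanks, -4.68 in windows of at least 80%, -4.26 as a median over genes and -4.02 with windows weighted alike. So its sign depended on the samples and windows used; the cause was not tested. At promoters, -2.39 points became -2.94 with own cytosines, -2.83 within 500 bp of the start and -8.91 as a median. The change of the 10 genes' windows minus all windows, 0.312 points, was -0.403 with at least 5 CpGs, -2.75 with at least 10 and -0.678 without flanks. Of 237 values of single genes under alternatives, 227 were classed as unchanged and 0 reversed a call. Values near 0 that were not called could change sign and still be classed as unchanged. The Zbtb16 difference at its CpG-rich end, for instance, was 0.0698 points and became -0.358 without knockout replicate 1. Replicates of the same number shared only a number (r = 0.028 over windows between the groups' replicate differences), and with the replicate as a block 723 windows and 2 promoters were lower, 0 were higher, and no count of calls moved. Without read numbers, differences at single CpGs cannot be set against counting error.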
